A study of Mus musculus with 6 samples.

Results

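The cadherin superfamily and the catenins that anchor it were examined in sorted neural stem cells from the ventricular-subventricular zone (V-SVZ) of adult mice, the layer beside the lateral ventricles where new neurons arise. Members were all genes whose current symbol begins with Cdh, Celsr or Fat and a number, with Pcdh, or with Ctnna or Ctnnd and a number, and which had a probe set annotated to that gene alone. There were 68 such genes among the 18193 genes measured, and RefSeq names 104 protein-coding genes that fit the same pattern. The other genes of the pattern, most of them in the alpha and gamma protocadherin clusters, were not analysed here as single genes. Quiescent cells were GFAP::GFP+CD133+CD24-, and activated cells were GFAP::GFP+CD133+EGFR+CD24-. Each group was measured on 3 arrays, described as biological replicates. The GFP reporter driven by the GFAP promoter, CD133 and the absence of CD24 were thus common to both sorts, and the EGF receptor set them apart. The mice were adult. The sources used here give neither their strain and exact age nor the number of animals behind each array.

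Cadherins are single-pass membrane proteins that bind the same or related cadherins on a neighbouring cell through calcium-dependent extracellular repeats. Classical cadherins hold beta-catenin and p120-catenin on their tails, and alpha-catenin links this complex to actin. Protocadherins lack that catenin link, the clustered ones give neurons individual surface identities, and the very large Celsr and Fat proteins act in planar cell polarity and growth control. In the ventricular zone niche, stem cells touch ependymal cells and one another through cadherin junctions, and N-cadherin is the best known of these cadherins.

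The promoters of 5 called members are shown as examples, chosen after their values were seen. Among called members with a promoter in the table, Pcdh7 and Fat3 had the largest falls, Cdh10 is the type II cadherin, and Celsr2 and Celsr3 changed in opposite directions within 1 family. Pcdh17 and Pcdh9, which fell by more than Cdh10, are not shown. Sequences are from RefSeq (GRCm38.p6) and run from 250 bases before to 50 bases after the annotated start, with each CpG dinucleotide in capitals. Pcdh7 lies at chr5:57717831-57718130 (forward strand), Fat3 at chr9:16502005-16502304 (reverse strand), Cdh10 at chr15:18820079-18820378 (forward strand), Celsr2 at chr3:108415530-108415829 (reverse strand) and Celsr3 at chr9:108825795-108826094 (forward strand).
Pcdh7: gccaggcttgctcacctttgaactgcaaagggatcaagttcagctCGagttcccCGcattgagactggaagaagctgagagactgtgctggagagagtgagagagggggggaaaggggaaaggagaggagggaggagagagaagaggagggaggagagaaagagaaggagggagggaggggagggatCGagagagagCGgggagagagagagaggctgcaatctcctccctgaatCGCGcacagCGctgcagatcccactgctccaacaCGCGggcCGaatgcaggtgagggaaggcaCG
Fat3: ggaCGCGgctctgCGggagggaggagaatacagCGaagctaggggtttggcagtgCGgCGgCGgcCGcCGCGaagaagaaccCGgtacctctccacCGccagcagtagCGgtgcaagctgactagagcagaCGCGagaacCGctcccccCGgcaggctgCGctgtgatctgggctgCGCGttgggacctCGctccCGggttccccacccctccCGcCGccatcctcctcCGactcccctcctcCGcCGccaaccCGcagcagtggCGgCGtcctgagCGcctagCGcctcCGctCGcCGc
Cdh10: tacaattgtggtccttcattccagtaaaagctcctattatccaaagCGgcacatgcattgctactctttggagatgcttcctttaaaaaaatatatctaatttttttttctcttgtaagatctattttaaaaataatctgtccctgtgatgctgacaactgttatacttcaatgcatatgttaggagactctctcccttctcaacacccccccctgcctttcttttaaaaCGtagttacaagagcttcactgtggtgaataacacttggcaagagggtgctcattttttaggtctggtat
Celsr2: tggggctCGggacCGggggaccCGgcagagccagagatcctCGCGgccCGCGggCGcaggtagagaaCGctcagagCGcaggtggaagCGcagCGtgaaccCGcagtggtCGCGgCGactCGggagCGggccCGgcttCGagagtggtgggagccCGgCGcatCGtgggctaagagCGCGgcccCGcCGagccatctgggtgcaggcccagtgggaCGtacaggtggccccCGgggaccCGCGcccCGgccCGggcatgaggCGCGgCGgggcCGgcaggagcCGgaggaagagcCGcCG
Celsr3: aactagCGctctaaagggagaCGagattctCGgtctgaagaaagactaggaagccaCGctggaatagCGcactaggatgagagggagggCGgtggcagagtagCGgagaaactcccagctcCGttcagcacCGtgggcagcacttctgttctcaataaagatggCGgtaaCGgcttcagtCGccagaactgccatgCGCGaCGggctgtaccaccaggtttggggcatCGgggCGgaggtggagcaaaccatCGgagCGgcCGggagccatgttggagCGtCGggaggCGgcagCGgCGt
The Celsr2 and Fat3 promoters held 40 and 35 CpGs, and those of Celsr3, Pcdh7 and Cdh10 held 25, 11 and 2. The median over 27025 promoters of the same 300-base length was 7, and the oppositely moving Celsr2 and Celsr3 were both above it. Promoters of 30 members were in the table. TTGGCA, the core of one arm of the nuclear factor I site, was found on either strand in 6 of the 30 (20.0%) and in 14.4% of all promoters. Among the 5 shown it was in those of Fat3 and Cdh10. The E-box CAGCTG was in 2 of the 30 (6.67%) and in 16.1% of all promoters, and TGGGAA, the core of RBPJ sites, in 6 (20.0%) and 25.5%. ACAAAG, a Sox core, was in 4 (13.3%) and 18.7%, TATAAA, the TATA box, in 2 (6.67%) and 14.2%, and the E2F site TTTCCCGC in 1 (3.33%) and 1.11%. The CRE TGACGTCA (1.88% of all promoters), the AP-1 site TGAGTCA (5.17%) and the full palindrome of nuclear factor I (0.0407%), which can overlap its arm, were in 0 of the 30. All were searched on both strands. These are matches of letters within the window, and no binding was measured.

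Values are log2 MAS5 signals of the brightest probe set of each gene, and a difference is the activated mean less the quiescent mean on that scale, ± SE from limma with a Benjamini-Hochberg adjusted p over all tested genes. Of the 68 members, 47 had a mean signal above the limit of 6.02 and were among the 11576 genes tested. In activated cells 14 members fell and 2 rose. The 16 called members are 34.0% of those tested, and 34.9% of all tested genes were called, so the share of changed members was near the background. By direction, 29.8% of the members fell against 17.6% of all tested genes, and 4.26% rose against 17.3%. The median difference was -0.95 over the 47 tested members and 0.01 over all tested genes, and 40 of the 47 differences were negative. The 3 arrays of one group lay wholly on one side of the other for 24 members (51.1%), 22 of them lower in activated cells, where this was so for 50.7% of all tested genes. In bulk samples, a lower share of cells carrying a transcript and less transcript per cell cannot be told apart.

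**Figure D1:**
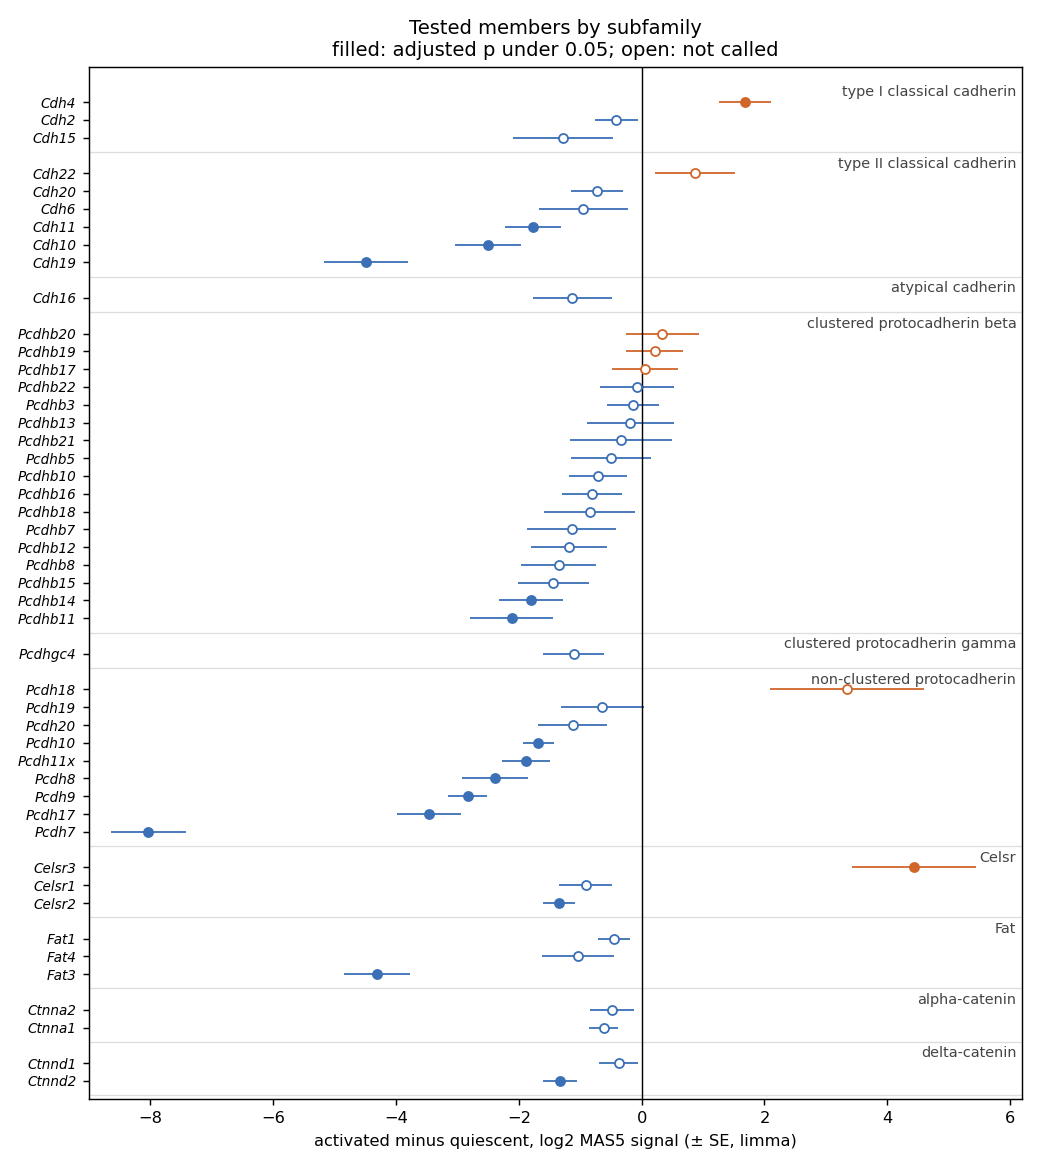
Difference between activated and quiescent cells (horizontal axis, log2 MAS5 signal, with bars for the SE of the limma fit) for the 47 tested members, grouped by subfamily; filled points have an adjusted p under 0.05. The filled points are 14 members on the negative side and Cdh4 and Celsr3 on the positive side, and Pcdh7 lies farthest from 0, at -8.03.

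Measures of the arrays, other than the 3' to 5' actin signal, moved with the groups. The mean of the hybridisation controls was 14.3 ± 0.53 (SD, n = 3) for the quiescent group and 13.7 ± 0.05 (SD, n = 3) for the activated group, and background 5.67 ± 0.37 against 4.60 ± 0.07 (two-sided exact permutation p = 0.1 for each, the smallest that 3 against 3 arrays allow). The excess of 3' over 5' Gapdh signal, a sign of RNA quality, was 2.59, 2.01 and 1.54 on quiescent and 1.19, 1.51 and 1.41 on activated arrays (two-sided exact permutation p = 0.1). The same measure for actin was -0.24, 0.01 and 0.07 on quiescent and -0.11, 0.13 and 0.20 on activated arrays (two-sided exact permutation p = 0.4). Quiescent array 1 stood highest on the Gapdh measure and on the hybridisation controls, at 14.94 against 14.01 and 14.04 on quiescent arrays 2 and 3. On the actin measure quiescent array 1 was the lowest. Without it 2 members rose and 13 fell. The part of these measures in the results was not tested. With each array scaled to its hybridisation controls, the median of all tested genes moved from 0.01 to 0.66 and that of the members from -0.95 to -0.30. This scaling adds 1 constant to all genes of an array, so the gap of -0.96 between these medians cannot change with it. The gap was -0.71 after quantile normalization and -0.49 with no signal limit. With the scaling to hybridisation controls, called members were 3 higher and 6 lower, beside 26.4% and 8.15% of all tested genes. Of the member calls under that scaling 33.3% were higher, against 12.5% with the deposited scaling. The calls lost were those of Cdh10, Cdh11, Pcdh8, Pcdh11x, Pcdhb11, Pcdhb14, Celsr2 and Ctnnd2, and the one gained was Pcdh18.

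Marker lists of other cell types were also lower on the activated arrays. All 7 tested mature oligodendrocyte markers, 3 of 5 endothelial, 4 of 5 pericyte and 2 of 2 ependymal markers fell, and 0 of these rose. Of all tested genes, 17.6% fell and 17.3% rose. The summed linear signal of the 7 oligodendrocyte markers ranged from 15367 to 60322 on quiescent and from 2059 to 5334 on activated arrays. For the 11 measured endothelial markers it was 1492 to 4540 against 274 to 389, for the 8 pericyte markers 5058 to 8968 against 366 to 668, and for the 8 ependymal markers 1402 to 1899 against 166 to 218. Of the 6 microglial markers, C1qa, Aif1 and Tmem119 were at or below background on all 6 arrays, and the summed signal was 363 to 487 against 91.3 to 143. Of 7 neuroblast and neuron markers 6 were tested, of which Dcx, Dlx2 and Rbfox3 rose and Tubb3, Stmn2 and Snap25 did not pass. Syt1, a synaptic vesicle protein of mature neurons, was under the signal limit and differed the other way, at 6.26, 5.65 and 7.01 in quiescent and 3.20, 3.57 and 4.65 in activated cells, and its further probe sets differed by -3.77 to -1.54. The summed signal of the 7 was 2893 to 8737 against 20209 to 24734. All 8 astrocyte and quiescent stem cell markers fell (98368 to 150681 against 24327 to 30834). Of the sort genes, Gfap fell by 4.18 although both sorts required its reporter, and Egfr was 2.11 higher. The part of these cell types in the differences of the cadherin family was not tested.

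**Figure D2:**
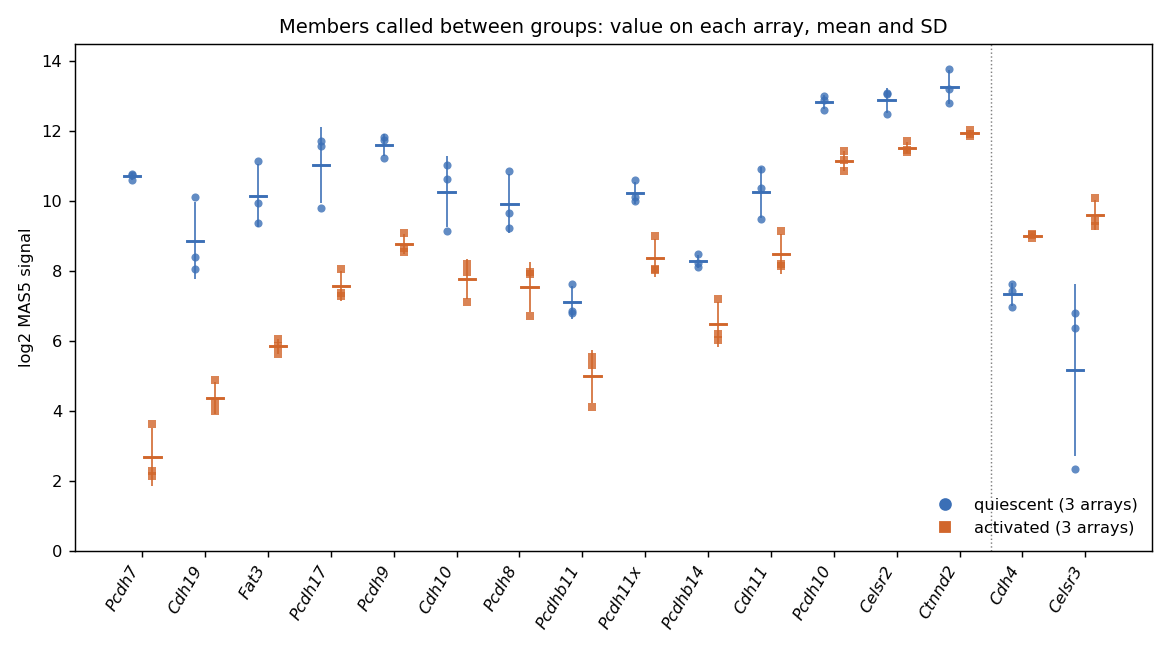
Log2 MAS5 signal (vertical axis) on each of the 3 quiescent (circles) and 3 activated (squares) arrays for the 16 called members, with group means as horizontal bars and SD as vertical lines. No member shown has overlapping groups; Celsr3 has the widest quiescent spread, from 2.34 to 6.81, and Pcdh7 the widest gap.

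Among the 3 tested type I classical cadherins, the one called change was a rise of Cdh4, where 17.3% of all tested genes rose. Cdh4 encodes R-cadherin of the nervous system and retina. It read 7.42, 6.98 and 7.62 on quiescent arrays 1, 2 and 3, and 9.07, 8.93 and 9.05 on activated arrays 1, 2 and 3. Every activated array exceeded every quiescent one, and the difference was 1.68 ± 0.42 (adjusted p = 0.0109, 3.20-fold). Its further probe sets differed by 1.59 and 2.15, in the same direction.

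Cdh2, which encodes N-cadherin, did not pass the test. It read 12.005, 12.04 and 11.88 in quiescent cells and 10.80, 11.63 and 12.27 in activated cells. Activated array 3 was the highest of the 6 and activated array 1 the lowest, so the groups overlapped (difference -0.41 ± 0.35, adjusted p = 0.38). A second Cdh2 probe set differed by -1.04 with no overlap, at 11.65 to 12.03 against 10.49 to 11.22. The sign of the first turned to 0.23 after scaling to the hybridisation controls. Cdh15, or M-cadherin of muscle, differed by -1.28 ± 0.81 (adjusted p = 0.24) with overlapping arrays. Cdh1 (E-cadherin) and Cdh3 (P-cadherin), both of epithelia, were below the signal limit. Cdh1 was above background on 0 of 3 quiescent arrays and 1 of 3 activated arrays, where it read 6.19.

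Type II cadherins differ from type I in their adhesive interface and have often been used to map brain regions and nerve pathways. Of 6 tested, Cdh10, Cdh11 and Cdh19 fell and 0 rose, where 17.6% of all tested genes fell and 17.3% rose. Cdh10, a brain cadherin, read 9.14, 10.64 and 11.05 in quiescent and 7.12, 7.98 and 8.21 in activated cells. Quiescent array 1 was the lowest of its group and still above all activated arrays, and the difference was -2.51 ± 0.53 (adjusted p = 0.00499, 5.68-fold lower). Its 3 further probe sets, which share the transcript and are no replicates, differed by -3.54 to -2.30.

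Cdh11, a cadherin of mesenchymal and some neural cells, read 9.48, 10.38 and 10.91 in quiescent and 8.19, 8.14 and 9.15 in activated cells. Activated array 3 came closest to the quiescent range, and the difference was -1.77 ± 0.46 (adjusted p = 0.013). Leaving out activated array 2 ended the call (adjusted p = 0.0504; over 18 alternatives it ranged from 0.00152 to 0.176), and a second probe set differed by -3.20. Cdh19, which is known from Schwann cell precursors and other glia, read 8.41, 8.07 and 10.12 in quiescent cells. In activated cells it read 3.996, 4.23 and 4.89, at or below background on arrays 1 and 2. This was a fall of at least 18.1-fold (fitted difference -4.49 ± 0.68, adjusted p = 0.000749). It was called under each of the 17 alternatives in which it was tested. Called markers of mature oligodendrocytes, astrocytes and quiescent stem cells, pericytes, endothelial and ependymal cells were all lower on the same arrays. Their part in the Cdh19 difference was not tested.

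Cdh20, Cdh6 and Cdh22 did not pass the test. Cdh20 differed by -0.73 ± 0.43 (adjusted p = 0.203), Cdh6 by -0.95 ± 0.73 (adjusted p = 0.331) and Cdh22 by 0.87 ± 0.65 (adjusted p = 0.315), each with overlapping arrays. Cdh5, the VE-cadherin of endothelial junctions, was under the limit. It read 5.91, 6.64 and 7.19 in quiescent and 1.38, 4.78 and 0.52 in activated cells, with activated array 2 alone of its group above background. Its groups did not overlap, as for 4 of the 5 tested endothelial markers, and the part of endothelial cells in the Cdh5 difference was not tested. The one tested atypical cadherin, Cdh16 (known from kidney), differed by -1.13 ± 0.64 (adjusted p = 0.192), while its arrays did not overlap.

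The beta protocadherins, single-exon genes arrayed side by side in 1 cluster, were measured for 22 genes, of which 17 were tested. Pcdhb11 and Pcdhb14 fell and 0 rose, where 17.6% of all tested genes fell and 17.3% rose, so the called share of the beta genes did not exceed that background. The median difference over the 17 was -0.71, the range -2.12 to 0.34, and 14 were negative. The beta genes are close copies, so that probe sets may share transcripts, and single members are uncertain.

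Pcdhb14 read 8.24, 8.49 and 8.10 in quiescent and 7.20, 6.04 and 6.19 in activated cells. The groups did not overlap, and the difference was -1.80 ± 0.52 (adjusted p = 0.0222). Its second probe set ran the other way, by 0.49 with overlapping arrays, and the call was lost with the mean of both (adjusted p = 0.422). It was also lost without quiescent array 2 (adjusted p = 0.0669), activated array 2 (0.0779) or activated array 3 (0.0724). Quantile normalization (adjusted p = 0.056) and scaling to the hybridisation controls (0.167) ended it too. In 1 alternative, probe sets whose names end in _s_at, _x_at or _a_at, which may match several transcripts, were left out. Pcdhb14 was then no longer tested, because its second probe set was under the signal limit. Over 16 alternatives the adjusted p ranged from 0.0123 to 0.422. Pcdhb11 read 7.64, 6.81 and 6.86 in quiescent and 5.53, 5.31 and 4.12 in activated cells. Activated array 3 was below background, and Pcdhb11 was at least 3.88-fold lower (fitted difference -2.12 ± 0.67, adjusted p = 0.0324). That call was lost without quiescent array 1 (adjusted p = 0.111), quiescent array 2 (0.0595), activated array 2 (0.0631) or activated array 3 (0.113), and the adjusted p ranged from 0.0124 to 0.158 over 14 alternatives. Quantile normalization (adjusted p = 0.158), scaling to the hybridisation controls (0.133) and the fit with no signal limit (0.0526) ended it too.

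The other tested beta members did not pass the test. Of the 17 tested, 5 had non-overlapping groups that were lower in activated cells, against 25.5% of all tested genes. Besides Pcdhb11 and Pcdhb14 these were Pcdhb8 (-1.35 ± 0.61, adjusted p = 0.11), Pcdhb10 (-0.71 ± 0.475, adjusted p = 0.265) and Pcdhb15 (-1.44 ± 0.58, adjusted p = 0.0762). Pcdhb8 was called lower with no variance trend, and a second Pcdhb15 probe set differed by 1.89. Pcdhb3 read 8.03, 8.72 and 8.98 against 8.62, 8.21 and 8.49 and differed by -0.14 ± 0.42 (adjusted p = 0.823). Its sign turned after quantile normalization, after scaling to the hybridisation controls and without quiescent array 3. Pcdhb16, singled out after its values were seen, had 3 probe sets that disagreed. The brightest differed by -0.81 ± 0.49 (adjusted p = 0.218), another by 1.74 with 6.38 to 7.31 in quiescent and 8.52 to 8.67 in activated cells, and the last by -0.61.

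The gamma cluster was measured through Pcdhgc4, one of its C-type genes, which are thought to be expressed more uniformly than the variable ones. It read 8.81, 10.44 and 8.78 in quiescent and 8.29, 8.37 and 8.05 in activated cells. The groups did not overlap, but quiescent array 2 stood apart and the test was not passed (difference -1.11 ± 0.50, adjusted p = 0.106). Alpha protocadherins share their last exons, and 6 probe sets were annotated to 9 or 14 alpha genes at once and so fell outside the members. The 3 annotated to 14 genes were above background on all activated arrays and on 1 quiescent array each. One of these read 5.01, 5.23 and 5.46 in quiescent and 6.76, 6.80 and 7.21 in activated cells, at least 2.38-fold higher. The others were at least 4.10-fold and 2.46-fold higher, the former with overlapping groups. These bounds carry no test, because probe sets of several genes were not in the fit. The 3 annotated to 9 genes differed by 0.00, -0.61 and -0.90.

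Non-clustered protocadherins, the delta protocadherins of developing neural tissue among them, held the most calls: 6 of 9 tested fell and 0 rose, with a median of -1.88. Over all tested genes, 17.6% fell and 17.3% rose. Pcdh7 read 10.75, 10.60 and 10.78 in quiescent cells and 2.27, 3.64 and 2.13 in activated cells. All activated arrays were below background, which was 4.67, 4.52 and 4.60 there. The fall was at least 69.3-fold (adjusted p = 3.26e-05; the fitted difference of -8.03 ranged from -8.51 to -4.61 over 17 alternatives, all of them called). Both further probe sets were below background on every activated array, with quiescent values of 8.57 to 9.11 for one and 6.33 to 8.40 for the other.

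Pcdh9, a delta-1 protocadherin like Pcdh7, read 11.23, 11.84 and 11.74 in quiescent and 9.09, 8.67 and 8.56 in activated cells. The groups were well apart and the difference was -2.83 ± 0.32 (adjusted p = 0.000139, 7.11-fold lower). Its further probe sets differed by -4.04 and -1.59. Pcdh11x, another delta-1 member, read 10.00, 10.59 and 10.13 against 8.99, 8.07 and 8.03. Activated array 1 was nearest to the quiescent values, and the difference was -1.88 ± 0.39 (adjusted p = 0.00442), with -2.90 for the second probe set.

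The delta-2 protocadherins, some of which bind the WAVE actin regulators through their tails, fell in 3 of 5 tested cases. Of all tested genes, 17.6% fell. Pcdh17 read 11.73, 11.58 and 9.79 in quiescent and 8.06, 7.29 and 7.38 in activated cells. Quiescent array 3 was lower than the other two and still above every activated array (difference -3.46 ± 0.52, adjusted p = 0.000715, 11.0-fold lower). Pcdh10 read 12.998, 12.61 and 12.89 against 10.86, 11.18 and 11.43, a difference of -1.68 ± 0.26 (adjusted p = 0.000763). Its 5 further probe sets differed by -2.06 to -0.90. The Pcdh10 call was lost without the _s_at, _x_at and _a_at probe sets (adjusted p = 0.082), when another of its probe sets stood for it. The brightest, which was left out there, is annotated to Pcdh10 alone. Over 18 alternatives the adjusted p of Pcdh10 ranged from 0.000443 to 0.082. Pcdh8 read 9.24, 9.67 and 10.87 against 7.92, 6.72 and 7.97, a difference of -2.39 ± 0.53 (adjusted p = 0.0063), and its second probe set differed by -1.33. Without the _s_at, _x_at and _a_at probe sets, Pcdh8 was no longer tested, because its second probe set was under the signal limit.

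Pcdh18 and Pcdh19, the remaining delta-2 members tested, did not pass. Pcdh18 read 6.18, 7.74 and 1.84 in quiescent and 7.65, 9.68 and 8.46 in activated cells. Quiescent array 3 was below its background of 5.45, and quiescent array 2 overlapped the activated range. With that array held at background the activated mean was at least 4.41-fold higher, but the test was not passed (fitted difference 3.34 ± 1.26, adjusted p = 0.0609). The further Pcdh18 probe sets had non-overlapping groups, higher in activated cells by 1.30 and 2.10. Pcdh18 was called higher under quantile normalization, scaling to the hybridisation controls, both pseudocounts, values raised to background, the mean of probe sets, the replicate block and without quiescent array 2. Pcdh19 differed by -0.64 ± 0.68 (adjusted p = 0.483) and its further probe sets by -2.37 and -1.46. Pcdh20 differed by -1.12 ± 0.56 (adjusted p = 0.144), with groups that did not overlap.

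Pcdh8, Pcdh17, Pcdh20 and Pcdh9 follow one another on chromosome 14 in a stretch of 7 protein-coding genes, which was looked at after their values were seen. All 4 had negative differences, and Pcdh8, Pcdh17 and Pcdh9 fell, where 17.6% of all tested genes fell. Of the 3 genes between them, Diaph3 differed by -0.85 ± 0.40 (adjusted p = 0.122) with groups that did not overlap. Tdrd3 differed by 0.57 ± 0.43 (adjusted p = 0.321) with overlap. Olfm4 was under the limit, with means of 5.26 and 3.19. It was also lower in activated cells with no overlap, and at or below background on all activated arrays.

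**Figure D3:**
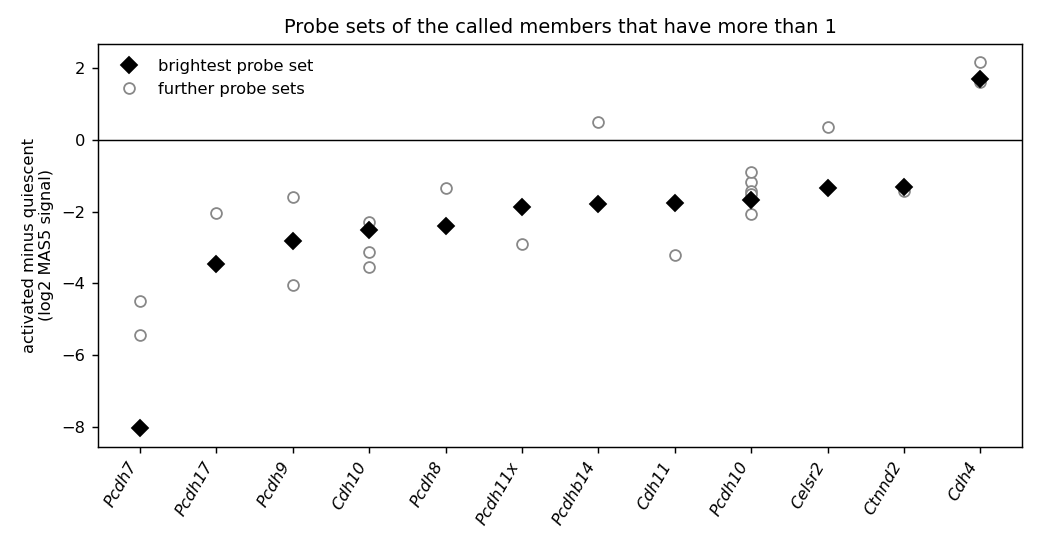
Difference between activated and quiescent cells (vertical axis, log2 MAS5 signal) for the brightest probe set (diamonds) and each further probe set (circles) of the 12 called members that have more than 1. Of 21 further probe sets, 19 lie on the same side of 0 as the brightest, and those of Pcdhb14 (0.49) and Celsr2 (0.36) on the other.

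The 3 Celsr genes, mammalian relatives of fly flamingo in planar cell polarity, differed from one another in direction. Celsr3, which is needed for axon tracts and is typical of postmitotic neurons, read 2.34, 6.81 and 6.37 in quiescent and 10.09, 9.29 and 9.44 in activated cells. Every activated array was above every quiescent one, and quiescent array 1 was below background. Celsr3 was at least 9.05-fold higher (fitted difference 4.43 ± 1.01, adjusted p = 0.00684), and the fitted difference ranged from 2.80 to 5.25 over 17 alternatives, all of them called. Of the 7 neuroblast and neuron markers, 3 rose on the same arrays (Dcx, Dlx2 and Rbfox3), 3 did not pass (Tubb3, Stmn2 and Snap25), and the untested Syt1 was 2.50 lower in activated cells with no overlap. Their part in the Celsr3 difference was not tested.

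Celsr2, which acts with Celsr3 in ependymal cilia and neurite growth, read 13.06, 13.10 and 12.48 in quiescent and 11.42, 11.46 and 11.72 in activated cells. The groups did not overlap, and Celsr2 fell by 1.35 ± 0.26 (adjusted p = 0.00284, 2.55-fold lower). A second probe set, of 6.98 to 8.17 in quiescent and 7.70 to 7.87 in activated cells, differed by 0.36, and the call was lost with the mean of both (adjusted p = 0.129; range over 18 alternatives 0.000462 to 0.132). Celsr1, a planar polarity protein of neural tube and skin, read 10.32, 9.45 and 10.16 against 8.31, 9.11 and 9.77. Activated array 3 overlapped the quiescent range (difference -0.91 ± 0.44, adjusted p = 0.127).

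Of the Fat cadherins, which regulate growth and tissue polarity, Fat3 fell and Fat1 and Fat4 did not pass. Fat3, known for shaping dendrites of retinal neurons, read 11.15, 9.94 and 9.38 in quiescent and 5.63, 5.85 and 6.07 in activated cells. All activated arrays were above their background but far below the quiescent ones, and the difference was -4.31 ± 0.53 (adjusted p = 0.000235, 19.8-fold lower). It was called under all 18 alternatives, with differences of -4.69 to -3.32. Fat1 read 11.30, 11.61 and 11.49 against 10.80, 11.15 and 11.10. Its groups did not overlap, but the difference of -0.45 ± 0.26 did not pass (adjusted p = 0.193), and its sign turned to 0.19 after scaling to the hybridisation controls. Fat4, the partner of Dachsous, read 8.02, 9.14 and 9.77 against 7.30, 8.93 and 7.60, with overlap (difference -1.04 ± 0.58, adjusted p = 0.188). Fat2 was at or below background on all 6 arrays.

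Of the 4 tested alpha- and delta-catenins, Ctnnd2 fell and the others did not pass, where 17.6% of all tested genes fell. Ctnnd2, or delta-catenin, a neural relative of p120, read 13.79, 13.22 and 12.82 in quiescent and 11.86, 12.04 and 11.93 in activated cells. The groups did not overlap, and it fell by 1.33 ± 0.28 (adjusted p = 0.00455, 2.52-fold lower), with -1.44 for its second probe set. Ctnnd1, p120-catenin itself, which holds cadherins at the membrane, read 10.40, 11.14 and 10.78 against 10.55, 10.00 and 10.66. The groups overlapped (difference -0.37 ± 0.32, adjusted p = 0.386), and its further probe sets differed by -2.65 and 0.61. Ctnna1, the widely expressed alpha-catenin, read 12.46, 12.41 and 12.71 against 11.84, 12.01 and 11.88. Its groups did not overlap but the difference of -0.62 ± 0.23 just missed the threshold (adjusted p = 0.0596). It was called lower after quantile normalization (adjusted p = 0.0274; range over 18 alternatives 0.0274 to 0.965), and its difference was 0.02 after scaling to the hybridisation controls. Ctnna2, the neuronal alpha-catenin, differed by -0.48 ± 0.35 (adjusted p = 0.307), or 0.16 after that scaling. Ctnna3, known from heart, was under the limit, at 6.08, 6.25 and 7.39 in quiescent and 1.22, 1.08 and 3.81 in activated cells, the latter all below background.

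Partner genes of the junction and of planar polarity were taken from a list of 87, of which 79 were measured and 59 tested. In activated cells 11 rose and 13 fell, 40.7% of those tested against 34.9% of all tested genes, with a median difference of 0.07. The higher count was 7 without activated array 1, 4 without activated array 2 and 7 without activated array 3, the lower count was 8 without activated array 3, and scaling to the hybridisation controls gave 20 higher and 6 lower. Beta-catenin (Ctnnb1), which joins classical cadherins to alpha-catenin, read 14.10, 13.72 and 13.36 against 14.08, 14.04 and 13.92. Its groups overlapped (difference 0.29 ± 0.24, adjusted p = 0.38). Its further probe sets differed by 2.12 and 2.32, and it was called higher when its probe sets were averaged (1.58, adjusted p = 0.000297) and under the hybridisation control scaling (0.93, adjusted p = 0.0167; range over 17 alternatives 0.000297 to 0.675).

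Of the catenin relatives on the list, named after their values were seen, plakoglobin (Jup), which takes the place of beta-catenin at junctions and is part of desmosomes, fell. It read 9.02, 8.54 and 9.65 in quiescent and 5.74, 6.74 and 6.55 in activated cells, with no overlap (difference -2.73 ± 0.52, adjusted p = 0.00266, 6.62-fold lower). Ctnnal1, or alpha-catulin, a relative of alpha-catenin, fell by 1.53 ± 0.45 (adjusted p = 0.0236), at 9.73 to 10.28 against 7.48 to 9.04. The p120 relatives Arvcf, Pkp2 and Pkp4 did not pass. Arvcf differed by -0.78 ± 0.44 (adjusted p = 0.1955) and Pkp2 by -0.51 ± 0.53 (adjusted p = 0.471), both with overlapping arrays. Pkp4 differed by 0.46 ± 0.27 (adjusted p = 0.208), with groups that did not overlap. Pkp1 and Pkp3 were under the signal limit.

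Linkers of the junction to actin differed in both directions. Vinculin (Vcl), which binds stretched alpha-catenin, read 11.46, 11.67 and 11.75 in quiescent and 8.24, 7.53 and 7.77 in activated cells, a fall of 13.7-fold (difference -3.78 ± 0.33, adjusted p = 4.62e-05). The actin-binding Ablim1 was at least 27.8-fold lower (adjusted p = 0.000669). Lima1, also called EPLIN, which ties alpha-catenin to actin filaments, read 9.52, 9.63 and 9.12 against 12.57, 12.71 and 12.26, a rise of 8.51-fold (difference 3.09 ± 0.28, adjusted p = 5.36e-05). The further Lima1 probe sets differed by 0.19 to 4.53. For these 3 genes no array of one group reached the range of the other.

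In the Fat and planar polarity pathways calls also lay on both sides. Fjx1, the relative of the fly Golgi kinase that modifies Fat and Dachsous cadherins, read 13.15, 12.89 and 12.77 in quiescent and 8.86, 9.45 and 8.65 in activated cells (difference -3.95 ± 0.30, adjusted p = 3.26e-05). Dchs1, the Dachsous ligand of Fat4, read 6.16, 6.84 and 9.20 against 9.71, 10.20 and 9.70. Quiescent array 3 was close to the activated arrays, the difference was 2.47 ± 0.68 (adjusted p = 0.0176), and the call was lost without quiescent array 1 (adjusted p = 0.0557), quiescent array 2 (0.0644) or activated array 2 (0.0645; range over 18 alternatives 0.000348 to 0.0645). Of 12 core planar polarity genes, 3 rose and 3 fell, where 17.3% of all tested genes rose and 17.6% fell. The receptor Fzd6 fell by 3.57 ± 0.66 (adjusted p = 0.00236). The cytoplasmic Dishevelled protein Dvl3 was 2.28 ± 0.41 higher (adjusted p = 0.00182), and Dvl2 was at least 4.76-fold higher (adjusted p = 0.0101).

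**Figure D4:**
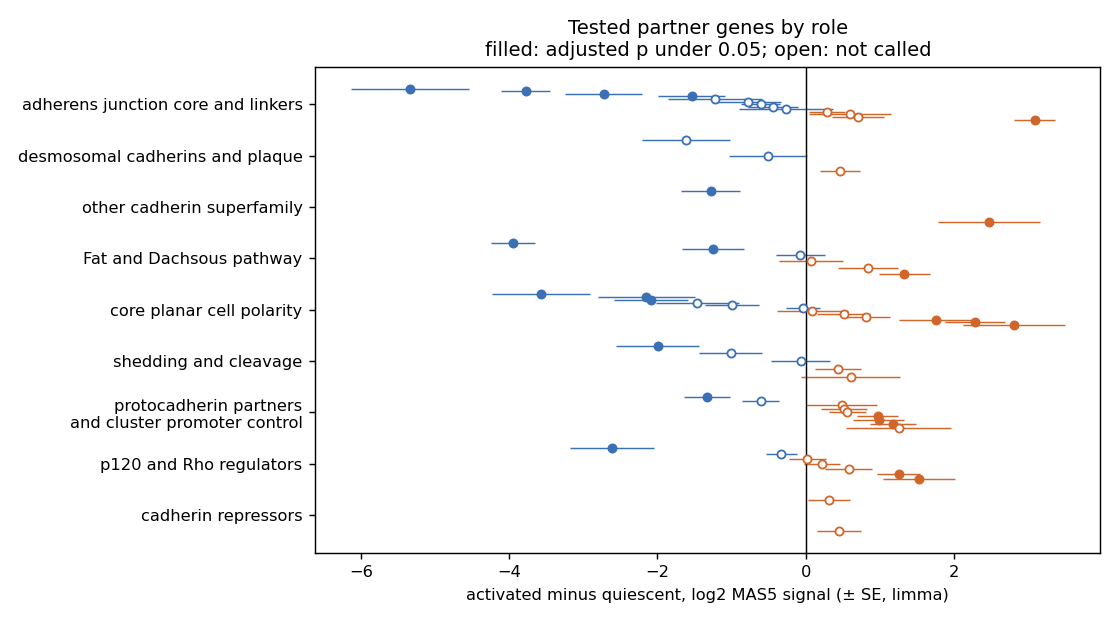
Difference between activated and quiescent cells (horizontal axis, log2 MAS5 signal, with bars for the SE of the limma fit) for the 59 tested partner genes by role; filled points have an adjusted p under 0.05. The 11 higher and 13 lower calls fall in 7 of the 9 roles, and the junction linkers span -5.34 (Ablim1) to 3.09 (Lima1).

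The 21 members under the signal limit had means of 2.53 to 5.86 over the 6 arrays and were not tested. The limit is set on the mean of both groups, so members bright in 1 group alone could miss it. On all 3 activated arrays 7 of the 21 were at or below background, and 3 of these (Cdh9, Fat2 and Pcdhb1) on all 6 arrays. Of the 21, 6 (28.6%) had non-overlapping groups that were lower in activated cells, against 25.2% of the 6617 genes under the limit, a share near that background. Cdh9 and Fat2, at background throughout, were among the 6. The activated arrays were above all quiescent ones for 1 of the 21, Pcdhb2 (4.76%, against 2.34%). Pcdh1, a protocadherin of epithelia and brain singled out after its values were seen, read 7.72, 7.43 and 7.17 in quiescent cells. In activated cells it read 4.82, 0.00 and 3.60, with arrays 2 and 3 below background. Without the signal limit 17 members fell and 2 rose, against 13.2% and 10.4% of 18193 genes. The additional calls were Cdh5, Cdh9, Ctnna3 and Pcdh1, and that of Pcdhb11 was lost. Cdh9 was called there although it was at or below background on all 6 arrays.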

How the data were processed

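RNA of 3 quiescent and 3 activated samples was amplified with NuGEN Pico and biotin labelled, per the labels' protocols. The deposited values are log2 signals, and the submitters' processing notes name MAS5 as the tool. The linear 2% trimmed mean was 500.0 on every array, and the MAS5 version is not given in the sources used here. Scaling to 1 mean removes differences in total RNA, and MAS5 signals near background are noisy. Of 45101 probe sets, 34945 were annotated to 1 gene and 932 to several. Symbols were updated by Entrez identifier through RefSeq (GRCm38.p6, names only, 99.1% of identifiers found), and the brightest probe set stood for a gene. No pseudocount was added. Genes at or above the 40th percentile of all probe sets (6.02) were fitted with lmFit and eBayes with trend (limma 3.58.1, R 4.3.3) with Benjamini-Hochberg adjustment and a threshold of 0.05. The fit was tested on simulated data. Background was the 95th percentile of 27 probe sets for bacterial transcripts. A fold is given as "at least" where any array of the dimmer group did not exceed background; each such array then counted at the higher of background and its signal. The 6 arrays limit the precision of every value.

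The members, the partner list and the marker lists were chosen with earlier results of these data known. Named genes were all called members, the brightest tested member of each subfamily, a fixed list of Cdh1, Cdh2, Cdh4, Cdh5 and the Celsr, Fat and catenin genes, Ctnnb1 and up to 4 called partners in each direction. Other members are named with their values where a count of a subfamily rests on them. Alternatives changed the scaling, the pseudocount, the filter, the choice of probe set or the variance model, added the replicate block, or left out 1 array. The replicate numbers were not treated as pairs.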

Additional observations from a re-analysis of the deposited data

How the results depend on the processing

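Over 18 alternatives, 575 recomputed differences of named genes kept their direction and their side of the threshold, 25 calls were lost, 3 were gained and 8 signs turned. Called genes that an alternative no longer tested are not in these counts. The 60th percentile filter left 1 member higher and 10 lower, because Celsr3, Cdh19, Pcdh7, Pcdhb11 and Pcdhb14 were no longer tested. Pcdhb11 was not tested either with a pseudocount of 16 or 64 or with values raised to background. Scaling to the hybridisation controls gave 6 members lower, and 20 partner genes higher and 6 lower. It turned the differences of Cdh2 (0.23), Pcdhb3 (0.51), Fat1 (0.19), Ctnna1 (0.025), Ctnna2 (0.16) and Ctnnd1 (0.27), 6 genes that were not called. Pcdhb3 also turned with quantile normalization (0.0046) and without quiescent replicate 3 (0.066), with a range of -0.41 to 0.066 when 1 array was left out. With 1 array left out, 2 to 3 members were higher and 11 to 14 lower, and 4 to 11 partner genes were higher and 8 to 15 lower. The causes were not tested. With the replicate block, 3 members were higher and 14 lower, the 16 calls were kept and Pcdh18 was gained. Same-numbered arrays deviated with correlations of 0.06, -0.02 and 0.03, and differently numbered ones with -0.08 to 0.05. With 3 arrays per group, these values cannot show whether same-numbered arrays were paired. Signals near background limit what can be said of the 21 untested members.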
